A study of Homo sapiens with 6 samples.

Results

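Ephrins are cell-surface ligands that are read by EPH receptor tyrosine kinases on neighbouring cells. The 8 human ephrin genes, EFNA1, EFNA2, EFNA3, EFNA4, EFNA5, EFNB1, EFNB2 and EFNB3, were taken by symbol from a count table of 61155 symbols. All 8 were among the 19521 genes with enough counts to be tested. They were compared between 3 bulk RNA sequencing libraries of wild-type (WT) H7 human embryonic stem cells (hESCs) and 3 libraries of S6K1-/- H7 hESCs, in which exons 9 and 11 of RPS6KB1, the gene for the kinase S6K1 downstream of mTORC1, had been targeted with CRISPR/Cas9. H7 is an established line of primed pluripotent cells, and both groups were grown without feeder cells on Matrigel in TeSR-E8. The edited cells came from plasmid transfection, sorting for GFP and clonal expansion, and the study names 1 clone for the sequenced S6K1-/- hESCs, so that the knockout and the clone cannot be told apart. The labels call the genotype a knockdown and name week 5, whereas the extract protocol and the methods describe an undifferentiated knockout. Neither source says whether the libraries of a group came from separate cultures, so p-values measure only the spread between these samples, which may be technical.

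The 5 ephrin-A proteins are held in the membrane by a glycolipid (GPI) anchor and mainly bind EPHA receptors. The 3 ephrin-B proteins span the membrane, mainly bind EPHB receptors, and carry a cytoplasmic tail that takes up phosphate on tyrosine and binds PDZ-domain proteins. Contact between the cells starts forward signalling in the cell with the receptor and reverse signalling in the cell with the ligand, with repulsion, adhesion or boundary formation as the outcome. In neural development these genes are known for axon guidance and for the topographic map of the retina on the brain.

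The libraries held 21896698 to 24473013 counts. RPS6KB1 had 831, 791 and 777 counts in WT hESCs and 464, 464 and 438 in S6K1-/- hESCs. The log2 fold change was -0.75, with a standard error of 0.0570 and an adjusted p of 2.52e-07. Its paralog RPS6KB2 differed by 0.07 on the log2 scale (adjusted p = 0.540). These and all later adjusted p-values are those of edgeR (quasi-likelihood F test), adjusted after Benjamini and Hochberg over all genes tested, unless DESeq2 is named, and a gene was called at an adjusted p under 0.001. Of 9 markers of pluripotent stem cells, all were tested, and 0 were called higher and 1 lower; their summed level was 6516 to 6703 CPM (counts scaled by the normalised library total) in WT and 6115 to 6183 CPM in S6K1-/- hESCs. Of the lists of 6 markers each for other cell types, neuron markers summed to 224.4 to 236.3 CPM in WT and 193.9 to 200.8 CPM in S6K1-/- hESCs, with 2 called lower, STMN2 (49.9 and 15.3 CPM) and DCX (11.1 and 7.65 CPM). Of the 6, 4 had all S6K1-/- libraries below all WT libraries. The other 2 overlapped, with higher means in S6K1-/- hESCs, SYT1 at 71.0 and 74.5 CPM and NEFM at 66.0 and 72.6 CPM. Over all genes tested, 16.7% lay below without overlap and 14.0% above, and 2.54% were called lower and 1.42% higher. Retina markers were at 48.69 to 54.14 CPM against 38.72 to 39.78 CPM with 1 called lower. That sum was mostly PMEL (50.9 and 38.8 CPM), the 1 retina marker tested. Mesenchyme markers were at 8.05 to 10.25 CPM against 3.17 to 4.01 CPM with 1 called lower. That sum was mostly PDGFRB (7.90 and 3.11 CPM). Of the mesenchyme list 2 genes were tested, and 4, among them DCN at 0, had at most 3 counts in every library. Endothelium markers were at 22.99 to 23.91 CPM against 10.29 to 10.53 CPM with 1 called lower. Neuroectoderm markers were at 31.71 to 34.58 CPM against 36.75 to 41.81 CPM with 1 called higher. Mesendoderm markers were at 17.35 to 21.27 CPM against 17.32 to 18.17 CPM. Of the 4 tested, 0 were called, but DESeq2 called 1 lower, beside 2.59% of all genes. In 3 of them all S6K1-/- libraries lay below all WT libraries, and in 1 above. FOXA2 was at 6.09 CPM in WT and 3.32 CPM in S6K1-/- hESCs (edgeR adjusted p = 0.001085). MIXL1 was at 10.95 and 12.93 CPM (edgeR adjusted p = 0.0449). Amnion and trophoblast markers were at 15.44 to 17.65 CPM against 14.41 to 16.61 CPM, with HAND1 at 0 in all libraries and 0 called.

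Of the 8 ephrin genes, 2 rose in S6K1-/- hESCs, EFNB1 and EFNB2, 0 fell and 6 were not called. Without any 1 of the 6 libraries the count was 1, with EFNB1 past the threshold and EFNB2 not. Both genes that rose encode transmembrane ephrin-B ligands, and the remaining ephrin-B gene, EFNB3, and the 5 ephrin-A genes were not called. Over all genes tested, 1.42% were called higher and 2.54% lower. At an unadjusted p under 0.05, 3 ephrin genes were higher and 1 lower, where 11.8% of all genes were higher and 14.5% lower. DESeq2's Wald test also called 2 ephrin genes higher and 0 lower, beside 1.74% of all genes higher and 2.59% lower. The median log2 fold change was 0.04 over the ephrin genes and 0.00 over all genes tested. With bulk libraries, a higher count from more cells that express a gene and from more RNA per cell cannot be told apart.

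The promoters of both genes that rose are shown because their pair of CCAAT boxes was the feature that set them apart by count among the 7 ephrin genes with a promoter in the table (EFNB3 had no entry). This feature was picked from those searched with the calls known, and it could not be compared with EFNB3. The sequences are the 250 bases before the transcript start in RefSeq on GRCh38.p14, written 5' to 3' on the strand of the gene, at chrX:68828771-68829020 on the plus strand for EFNB1 and at chr13:106535663-106535912 on the minus strand for EFNB2. Capitals mark CCAAT read on either strand (ATTGG where it lies on the opposite strand).
EFNB1: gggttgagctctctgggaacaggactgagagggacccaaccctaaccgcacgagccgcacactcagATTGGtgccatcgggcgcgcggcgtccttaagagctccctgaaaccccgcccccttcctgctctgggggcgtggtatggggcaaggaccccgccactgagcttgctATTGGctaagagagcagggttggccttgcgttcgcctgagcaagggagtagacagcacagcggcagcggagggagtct
EFNB2: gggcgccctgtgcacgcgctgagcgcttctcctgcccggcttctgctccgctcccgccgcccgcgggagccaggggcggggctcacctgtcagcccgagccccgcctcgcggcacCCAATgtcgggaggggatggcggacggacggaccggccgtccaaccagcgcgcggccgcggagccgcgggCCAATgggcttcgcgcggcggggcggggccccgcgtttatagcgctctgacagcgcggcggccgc
In EFNB1 both matches lay on the opposite strand, with their first base 184 and 78 bases before the start, and in EFNB2 both lay on the strand of the gene, 135 and 65 bases before it. EFNA4 had 1 such match, 67 bases before its start, and EFNA1, EFNA2, EFNA3 and EFNA5 had 0. Of 35116 promoters of this length in the table, 32% held CCAAT at least once and 9.53% held 2 or more matches, so the pair is a description of these letters and of no factor. The GC box letters GGGCGG, also searched on both strands, were found in 42.6% of all promoters and in all 7 ephrin promoters, with 1 match in EFNB1, 3 in EFNB2 and from 2 to 5 in the ephrin-A genes. The letters TATAAA, again searched on both strands, were found in 10.7% of all promoters. Among the ephrins they were found in EFNB2, with 1 match on the opposite strand (TTTATA in the sequence as written). The promoter of EFNB2 was 78.4% G or C with 40 CpG dinucleotides and that of EFNB1 63.6% with 15, against medians of 58% and 11 over all promoters.

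EFNB1 lies on the X chromosome (GRCh38 chrX:68829021-68842160, plus strand, 5 exons) and encodes the ephrin-B1 ligand, whose loss in people causes craniofrontonasal syndrome. Its normalised level was 25.02, 24.28 and 23.72 CPM in WT and 33.69, 34.29 and 33.03 CPM in S6K1-/- hESCs. All S6K1-/- libraries lay above all WT libraries, with a gap wider than the range within either group. The mean rose from 24.3 ± 0.649 to 33.7 ± 0.631 CPM (SD, n = 3 each), a gain of 38.3%. The log2 fold change was 0.47 (standard error 0.0548, 95% interval 0.35 to 0.59, edgeR adjusted p = 2.73e-05), which placed EFNB1 at rank 317 of all genes by p. It also passed the threshold in 12 of 12 alternative fits, with log2 fold changes from 0.45 to 0.50.

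EFNB2 (chr13:106489745-106535662, minus strand, 5 exons) encodes ephrin-B2, known as a marker of arterial endothelium and as a ligand of EPHB4. Its level was 44.16, 43.65 and 45.50 CPM in WT and 55.83, 53.05 and 54.16 CPM in S6K1-/- hESCs, again without overlap. The mean rose from 44.4 ± 0.960 to 54.4 ± 1.40 CPM (SD, n = 3 each), a gain of 22.3%. On the log2 scale this was 0.29 (standard error 0.0454, 95% interval 0.19 to 0.39, edgeR adjusted p = 4.18e-04). The call rested on having all 6 libraries: it was lost in each of the 6 fits that left out 1 library, with edgeR adjusted p-values from 0.00117 to 0.00483, while the log2 fold change stayed between 0.27 and 0.31. The endothelium markers of the list were lower in sum in S6K1-/- hESCs, mostly through TEK, the receptor of angiopoietins and the called gene of that list, at 11.2 CPM in WT and 1.24 CPM in S6K1-/- hESCs. ERG (9.55 and 7.42 CPM) and TIE1 (2.23 and 1.35 CPM) were not called but had all S6K1-/- libraries below all WT libraries. The other 3 had too few counts to be tested, with PECAM1 at 0.0824 and 0.0153 CPM, CDH5 at 0.0823 and 0.0718 CPM and CLDN5 at 0.377 and 0.304 CPM. The part of these markers in the EFNB2 result was not tested.

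EFNB3 (chr17:7705202-7711372, plus strand, 5 exons) encodes ephrin-B3, known as a midline barrier to corticospinal axons. It had 23.45, 24.61 and 24.75 CPM in WT and 23.04, 24.98 and 22.00 CPM in S6K1-/- hESCs. The groups overlapped. The log2 fold change was -0.06 (standard error 0.0637, edgeR adjusted p = 0.639), and its 95% interval of -0.19 to 0.08 lay wholly below the intervals of EFNB1 and EFNB2.

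**Figure D1:**
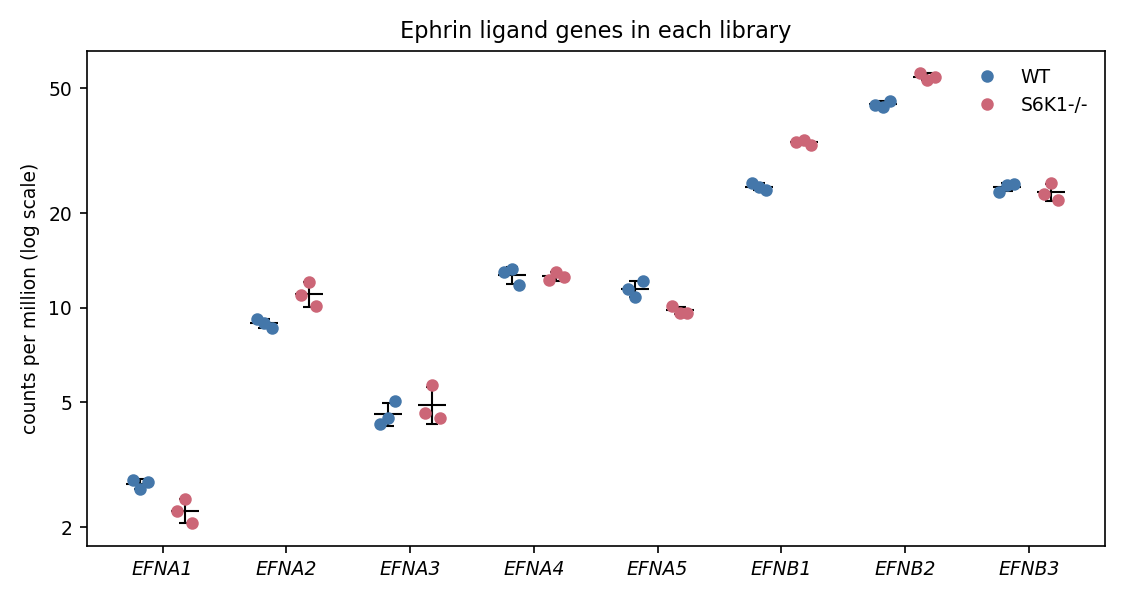
Normalised level in CPM of each of the 8 ephrin genes on a log axis, with a point per library, in blue for WT and red for S6K1-/- hESCs, and black bars for the mean and SD of each group (n = 3). EFNB1 and EFNB2 show the 3 S6K1-/- points clear of the 3 WT points and above them, and EFNB3 and EFNA4 show overlapping groups.

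The 3 ephrin-B genes were also compared as ratios within each library, which do not depend on the scaling between libraries. The ratio of the EFNB1 to the EFNB3 level in CPM was 1.067, 0.987 and 0.958 in WT and 1.462, 1.373 and 1.501 in S6K1-/- hESCs. The ratio of EFNB2 to EFNB3 was 1.83 ± 0.0549 in WT and 2.34 ± 0.185 in S6K1-/- hESCs. The ratio of EFNB1 to EFNB2 was 0.548 ± 0.0237 in WT and 0.620 ± 0.0232 in S6K1-/- hESCs (SD, n = 3 each). Each of the 3 ratios was higher in all S6K1-/- libraries than in all WT libraries, and the exact two-sided permutation test gave p = 0.1 for each (Benjamini-Hochberg adjusted p = 0.1 over 3 ratios), the smallest value that 3 against 3 libraries allow. The ratios come from the same counts as the calls of EFNB1 and EFNB2 and are no separate evidence for them.

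Among the ephrin-A genes none was called. EFNA2 (chr19:1285873-1301431, plus strand, 4 exons), which encodes a ligand graded across the midbrain target of retinal axons, had 9.20, 8.95 and 8.61 CPM in WT and 10.99, 12.11 and 10.11 CPM in S6K1-/- hESCs. The groups did not overlap, and the mean was 24.1% higher in S6K1-/- hESCs as against 22.3% for EFNB2. With 200 to 290 counts per library, its log2 fold change of 0.31 had a wider standard error, 0.0872 (95% interval 0.13 to 0.50, edgeR adjusted p = 0.0259). DESeq2's Wald test gave an adjusted p of 0.0807, and no fit took EFNA2 past 0.001.

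EFNA5 (chr5:107376894-107670937, minus strand, 5 exons over 294.0 kb) encodes ephrin-A5, the ligand best known for repelling temporal retinal axons. Its levels were 11.46, 10.82 and 12.18 CPM in WT and 10.14, 9.65 and 9.65 CPM in S6K1-/- hESCs. Every S6K1-/- library lay below every WT library, and the difference of the means was -14.6%. The log2 fold change was -0.23 (standard error 0.0797, 95% interval -0.40 to -0.06, edgeR adjusted p = 0.0756), and no setting brought it under 0.001 or above 0. EFNA5 was the ephrin gene that passed an unadjusted p under 0.05 in the lower direction. The study's RT-qPCR primers for EFNA5 are shown because they fix which transcript that assay reads, whereas the counts sum over all exons of the gene.
EFNA5 forward primer: TGGAGCGCCAGTGTGCTGTG
EFNA5 reverse primer: AGCCCCTGCGGTCAAGGAGT
Both are written in capitals because both matched whole, to exon 5 of 5 of transcript ENST00000333274.11, at chr5:107380192-107380211 and chr5:107380129-107380148. That exon stretch holds 0 coding bases, so both lie in the 3' UTR, and neither was found in the other 4 annotated EFNA5 transcripts.

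EFNA1, EFNA3 and EFNA4 lie side by side on the plus strand of chromosome 1, within 71.2 kb, in the order EFNA4 (chr1:155063737-155069553), EFNA3 (chr1:155078837-155087538) and EFNA1 (chr1:155127876-155134899). None of the 3 was called, and their estimates differed in sign. EFNA1, first known as a gene that tumour necrosis factor induces in endothelium, had 2.83, 2.64 and 2.80 CPM in WT and 2.26, 2.46 and 2.07 CPM in S6K1-/- hESCs, with all S6K1-/- libraries below all WT libraries. With 45 to 69 counts per library its log2 fold change of -0.28 carried a standard error of 0.148 (edgeR adjusted p = 0.248), so that a difference from -0.60 to 0.03 lay within its 95% interval. EFNA3 overlapped between groups, at 4.27, 4.48 and 5.04 CPM in WT and 4.64, 5.68 and 4.46 CPM in S6K1-/- hESCs (log2 fold change 0.10, standard error 0.126, edgeR adjusted p = 0.657). EFNA4 had 13.02, 13.34 and 11.80 CPM in WT and 12.27, 13.03 and 12.50 CPM in S6K1-/- hESCs, the smallest difference of the 8 genes (log2 fold change -0.01, 95% interval -0.18 to 0.15). The annotation holds a readthrough gene, EFNA4-EFNA3, on the same strand, which shares 43.9% of the exonic bases of EFNA3 and 15.0% of those of EFNA4, so reads in those bases are uncertain between the genes. The counts used here have no row under the readthrough symbol, and how its reads were assigned is not given in the sources used here.

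Of the 8 ephrin genes, EFNB1, EFNB2 and EFNA2 had all S6K1-/- libraries above all WT libraries and EFNA1 and EFNA5 had them all below, while 3 genes overlapped. Over all genes tested, 14.0% lay above without overlap and 16.7% below. At an adjusted p under 0.05, 3 ephrin genes were higher and 0 lower, where 5.47% of all genes were higher and 8.31% lower.

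**Figure D2:**
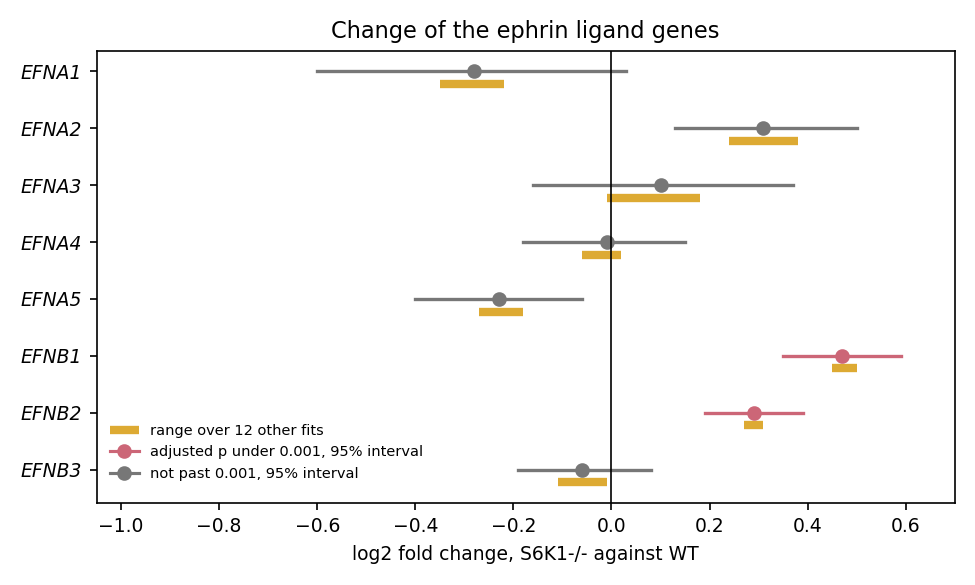
Log2 fold change of S6K1-/- against WT hESCs for each ephrin gene from edgeR, with its 95% interval (3 libraries per group), in red for called genes and grey for the rest. The yellow bar under each gene spans the estimates of the 12 alternative fits. The intervals of EFNB1 (0.35 to 0.59), EFNB2 (0.19 to 0.39) and EFNA2 (0.13 to 0.50) lie above 0, that of EFNA5 (-0.40 to -0.06) lies below it, and the other 4 include 0.

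To compare levels between genes, CPM were divided by the length in kilobases of each gene's merged exons. On this scale EFNA4 was the highest ephrin gene in WT hESCs, at 10.1 ± 0.649 CPM per kb (SD, n = 3), followed by EFNB2 at 8.88 ± 0.192, EFNB3 at 7.55 ± 0.222 and EFNB1 at 7.37 ± 0.197. The libraries of EFNB3 and EFNB1 overlapped, whereas every other neighbour in the WT order was separate. EFNA2 followed at 3.68 CPM per kb, EFNA3 at 2.36, EFNA5 at 2.00 and EFNA1 at 1.27. Among 16043 genes with a length, the WT levels per kb ran from the 28.0 percentile for EFNA1 to the 75.3 percentile for EFNA4, with EFNB2 at 72.1, EFNB3 at 68.0 and EFNB1 at 67.4.

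In S6K1-/- hESCs the order at the top was different. EFNB2 was first at 10.9 ± 0.280 CPM per kb, EFNB1 was at 10.2 ± 0.191 and EFNA4 at 10.0 ± 0.313 with overlapping libraries, and EFNB3 followed at 7.26 ± 0.469. Per kb, the lower 4 came in the WT order of EFNA2, EFNA3, EFNA5 and EFNA1. As a share of the summed level per kb of the 8 genes, EFNB1 made up 17.0% in WT and 21.2% in S6K1-/- hESCs and EFNB2 20.5% and 22.6%, while EFNA4 made up 23.4% and 20.8% and EFNB3 17.5% and 15.1%. The share of the 3 ephrin-B genes came to 54.7%, 54.6% and 55.9% in WT and to 59.4%, 57.7% and 59.2% in S6K1-/- hESCs. In absolute terms, the ephrin-B sum was 23.8 ± 0.153 CPM per kb in WT and 28.3 ± 0.571 in S6K1-/- hESCs, a difference of 19.0%. The ephrin-A sum was 19.4 ± 0.430 and 19.9 ± 1.09 CPM per kb, a difference of 2.25% that was smaller than the SD in S6K1-/- hESCs. Shares are a description and were not tested. They depend on the length used: with no division by length the ephrin-B share was 69.7% in WT and 73.3% in S6K1-/- hESCs. EFNB2 then made up 33.3% and 35.8% and was first in both groups, and EFNA4 made up 9.53% and 8.29%. The place of EFNA4 at the top in WT hESCs thus holds only per length. Of the lower genes, with no division by length, EFNA5 (8.60%) was above EFNA2 (6.68%) in WT hESCs and below it in S6K1-/- hESCs (6.46% and 7.27%).

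**Figure D3:**
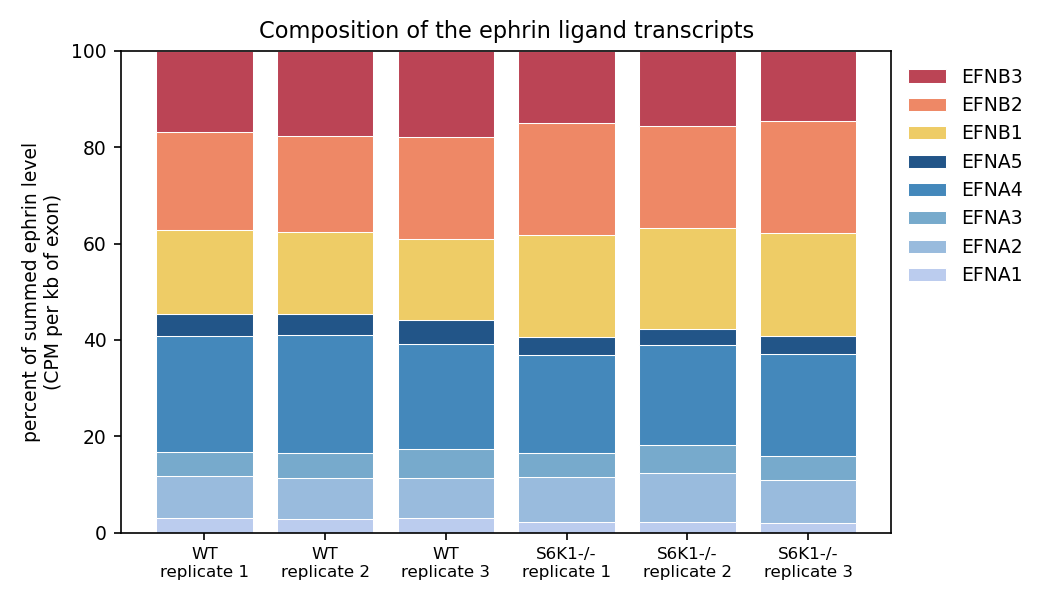
Share of each ephrin gene in the summed level per kb of the 8 genes, in percent, for each of the 6 libraries. The ephrin-B genes together take from 54.6% to 55.9% in WT and from 57.7% to 59.4% in S6K1-/- libraries.

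The receptors were looked at beside their ligands. Of 14 EPH receptor genes, 13 were tested, of which 1 rose, 0 fell and 12 were not called, with a median log2 fold change of -0.04, beside 1.42% of all genes called higher and 2.54% lower. EPHA4, a receptor that binds ephrins of both classes, had 252, 231 and 242 counts in WT and 358, 360 and 301 in S6K1-/- hESCs and rose by 0.55 on the log2 scale (standard error 0.0773, edgeR adjusted p = 1.58e-04), a call lost without S6K1-/- replicate 1 (adjusted p = 0.00129) or 2 (0.00121). EPHB4, the main receptor of ephrin-B2 and named here after its values were seen, had 152.4 CPM in WT and 148.5 CPM in S6K1-/- hESCs. At an unadjusted p under 0.05, 2 receptor genes were higher and 3 lower, beside 11.8% and 14.5% of all genes. Summed levels per kb were 70.5 CPM in WT and 70.9 CPM in S6K1-/- hESCs over 9 EPHA genes, and 30.4 and 30.2 CPM over 5 EPHB genes.

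Of the 53 tested genes in 4 lists of ephrin and EPH signalling, 1 was called higher and 0 lower, near the shares over all genes (1.42% and 2.54%). At an unadjusted p under 0.05, 5 were higher and 6 lower, beside 11.8% and 14.5% of all genes. Of 5 proteases and related genes that cut ephrins or EPH receptors, 4 were tested and 0 were called higher or lower (0 at an unadjusted p under 0.05, 0 by DESeq2); the smallest p-values were those of the membrane proteases ADAM17, at a log2 fold change of 0.08 (edgeR adjusted p = 0.382), and ADAM9, at -0.04 (edgeR adjusted p = 0.708). All 16 partners of ephrin-B reverse signalling were tested and 0 were called (1 higher and 3 lower at an unadjusted p under 0.05, 0 by DESeq2). RGS3, a regulator of G-protein signalling that binds the ephrin-B tail, had 12.0 CPM in WT and 9.19 CPM in S6K1-/- hESCs (log2 fold change -0.38, standard error 0.0770, edgeR adjusted p = 0.00318), and the polarity gene PARD6A differed by -0.39 (edgeR adjusted p = 0.0725). Of 3 co-receptors of ephrin-A, 2 were tested and 0 called (2 higher at an unadjusted p under 0.05, 0 by DESeq2), RET at 0.31 (edgeR adjusted p = 0.00822) and NGFR at 0.20 (edgeR adjusted p = 0.0382). Of 32 genes of EPH forward signalling, 31 were tested, 1 rose and 0 fell. That gene was INPPL1, a phosphoinositide phosphatase that binds EPHA2, at 83.5 ± 2.13 CPM in WT and 102.3 ± 3.80 CPM in S6K1-/- hESCs (log2 fold change 0.29, standard error 0.0424, edgeR adjusted p = 2.03e-04), and its call was lost without WT replicate 3 (adjusted p = 0.00206) or S6K1-/- replicate 1 (0.00196) or 2 (0.00165). The medians of the 4 lists were 0.01, 0.02, 0.25 and 0.01 on the log2 scale, in the order given.

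**Figure D4:**
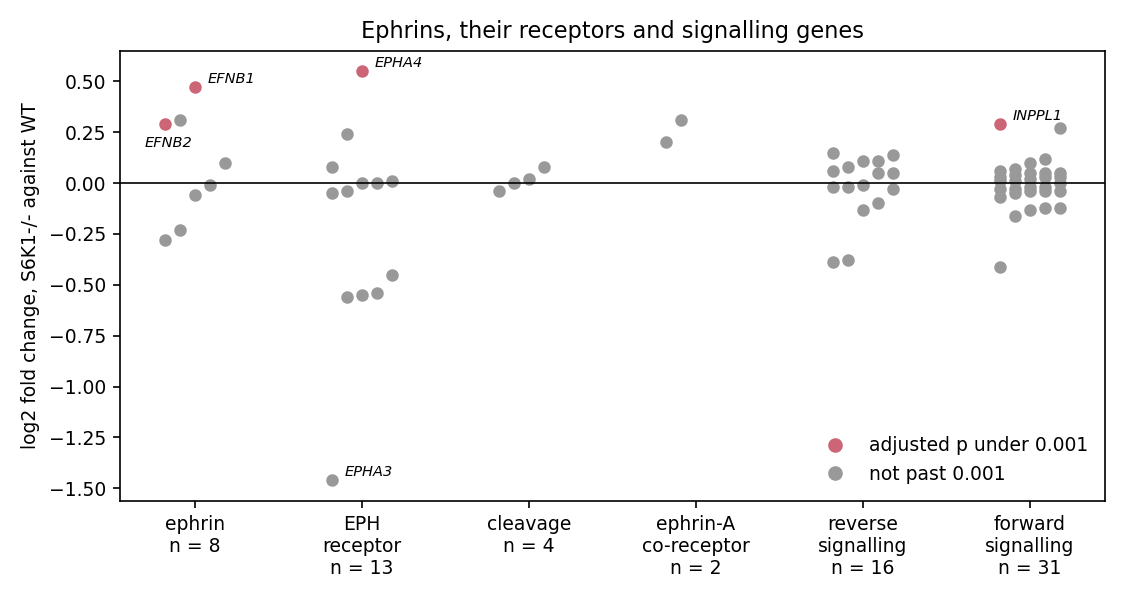
Log2 fold change of S6K1-/- against WT hESCs for each tested gene of the ephrin, EPH receptor and signalling lists, one point per gene, with called genes marked. The medians of the 6 lists lie between -0.04 and 0.25, the lowest point is EPHA3 (-1.46, not called), and the called genes are EFNB1 (0.47), EFNB2 (0.29), EPHA4 (0.55) and INPPL1 (0.29).

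The tested genes around each ephrin gene were read against the shares over all genes, 1.42% called higher and 2.54% lower, which leave less than 1 call to be looked for in a window of a few genes. Only the 16043 tested genes with a matched position, out of 19521, could appear in a window or as the nearest gene. Within 1 Mb of the start of EFNB1, 7 genes were tested and 0 passed (0 at an unadjusted p under 0.05, 0 by DESeq2), with a median log2 fold change of 0.01. The nearest tested genes were SERBP1P1, 45.6 kb to the left (0.02, edgeR adjusted p = 0.910), and PJA1, 336.5 kb to the right (0.05, edgeR adjusted p = 0.502). Around EFNB2, 2 genes were tested and 0 passed (0 at an unadjusted p under 0.05, 0 by DESeq2), and the nearest was ARGLU1, 32.5 kb away, at 0.06 (edgeR adjusted p = 0.369). Around EFNA5, likewise, 2 genes were tested and 0 passed, with LINC01950 at 0.08 and FBXL17 at 0.14. The windows of EFNB3, EFNA2 and the chromosome 1 genes were dense. Of 74 tested genes around EFNB3, 1 was called higher (CHD3) and 1 lower (CLDN7), and DNAH2 (0.26), the nearest tested gene to its right, was not called. At an unadjusted p under 0.05, 4 of the 74 were higher and 13 lower, beside 11.8% and 14.5% of all genes. DESeq2 also called 1 in each direction, beside 1.74% of all genes higher and 2.59% lower. Of 70 around EFNA2, 2 were called higher (PLPP2 and DOT1L) and 0 lower, whereas DESeq2 called 2 higher and 1 lower and 11 higher and 7 lower passed an unadjusted p under 0.05, with FAM174C at -0.15 and PWWP3A at 0.18 nearest. Around EFNA1, EFNA3 and EFNA4 the windows held 54, 52 and 52 tested genes, of which 1, SHE, was called lower in each; DESeq2 called 0 in all 3 windows, and 2 to 3 genes were higher and 6 to 7 lower at an unadjusted p under 0.05. Outside the cluster the nearest were SLC50A1 (-0.08) beside EFNA1 and ADAM15 (-0.11) beside EFNA4.

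The genes with a pattern over the 6 libraries nearest to that of EFNB1, by the root mean square difference of centred log2 CPM among the 10484 genes that averaged 10 CPM or more, were SETD4 (0.0249), LRAT (0.0293) and RAI1 (0.0330), with log2 fold changes of 0.48, 0.47 and 0.41. For EFNB2 they were THRAP3 (0.0148), ETV5 (0.0194) and ZMYM5 (0.0262), with log2 fold changes of 0.27, 0.28 and 0.31. Since the groups separate in EFNB1 and EFNB2, any gene with a like difference between the groups is near to them by this measure.

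The reads were aligned with Bowtie2, which places no read across an exon junction, and the ephrin transcripts differ in how many junctions they hold, from 0.745 per kb in EFNA5 and 0.801 in EFNB2 to 2.58 in EFNA1. Levels per kb therefore compare genes that lose reads to a different degree, which was not tested, whereas each fold change compares the same gene. A long noncoding gene on the opposite strand (ENSG00000284966) covers 36.4% of the exonic bases of EFNB2. The library kit keeps strand, but whether the counting used it is not given in the sources used here, so whether reads of that gene entered the EFNB2 count cannot be told. The counts used here have no row under its identifier.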

How the data were processed

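Poly(A) RNA of undifferentiated H7 hESCs (3 WT and 3 S6K1-/- libraries, TruSeq Stranded mRNA, paired reads) was trimmed with Trim Galore 0.6.5, aligned to GRCh38 with Bowtie2 2.4.5 and counted per gene by the authors, who deposited raw counts. The annotation release and strand setting are not given in the sources used here. A second deposited table holds the authors' own comparison (fold changes and p-values) and was not used. Counts were tested with edgeR 4.0.16 in R 4.3.3 (filterByExpr, TMM, quasi-likelihood F test on genotype), with Benjamini-Hochberg adjustment over 19521 genes and the study's threshold of 0.001. CPM use TMM-scaled library sizes, and positions and exon lengths come from GENCODE 44. The fit was tested on simulated data. The ephrin genes and the lists were chosen with earlier results of these data known. Text names all ephrin genes, RPS6KB1 and RPS6KB2, called receptor and signalling list members (up to 6 a list, or the 2 with the smallest p), nearest tested neighbours (1 is not reported here) and the 3 nearest patterns of each called ephrin gene; cell type markers are given as counts and ranges, and EPHB4 and single markers were named after their values were seen. Alternatives were DESeq2 1.42.0, other scaling, filters and thresholds, a replicate block and each library left out.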

Additional observations from a re-analysis of the deposited data

How the results depend on the processing

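EFNB1 was past an adjusted p of 0.001 in 12 of 12 alternative fits and EFNB2 in 6 of 12. Ephrin genes called higher numbered 1 in each fit without 1 library (1 to 1), against 2 with all 6 libraries, and 0 were called lower in every fit. Over all genes, the fits without 1 library called 175 to 235 higher and 313 to 445 lower, no filter on low counts called 591 and 982, an adjusted p under 0.05 called 1067 and 1622, and one under 0.01 called 534 and 939. EPH receptor genes called higher numbered 0 to 1 without 1 library and 2 at 0.05, and those called lower 1 with no filter, 2 at 0.05 and 1 at 0.01. Signalling genes called higher numbered 0 to 1 without 1 library, 3 at 0.05 and 2 at 0.01, and those called lower 1 with no filter, 3 at 0.05 and 1 at 0.01. The sign turned for EFNA3, to -0.01 without S6K1-/- replicate 2 in a range of -0.01 to 0.18 over the fits without 1 library, and for EFNA4, to 0.01 without WT replicate 1, 0.02 without WT replicate 2 and 0.01 without S6K1-/- replicate 1 in a range of -0.06 to 0.02; neither gene was called. The ephrin-B share with no division by length was 69.7% in WT and 73.3% in S6K1-/- hESCs. The cause of these moves was not tested. Rescaling moved the median of all genes by 0.00657 with DESeq2's size factors and by -0.0206 with library totals on the log2 scale.

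The replicate numbers were not treated as pairs in the main fit. The deviations of same-numbered libraries correlated at 0.0969, 0.0398 and 0.0928, and those of differently numbered libraries at -0.166 to 0.0776. Whether same-numbered libraries belong together was not tested. With the number as a replicate block, EFNB1 had an edgeR adjusted p of 1.02e-04 and EFNB2 of 9.08e-04, and no ephrin call changed. In simulated counts of 19521 genes, of 67 genes of all depths from a mean of 50 counts that were changed by 0.3 on the log2 scale, 29.9% were called, against 74.6% of 67 changed by 0.5. In that simulation 200 genes were changed in all, and 4 unchanged genes were called.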

Other observations

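Below the threshold, and chosen after their values were seen, 3 more receptors of ephrins had an adjusted p under 0.05, 1 higher and 2 lower, where 5.47% of all genes were higher and 8.31% lower. EPHA3, a receptor of ephrin-A5, had 24, 28 and 23 counts in WT and 7, 13 and 6 in S6K1-/- hESCs (log2 fold change -1.46, standard error 0.30, edgeR adjusted p = 0.00391), and these low counts limit its precision. EPHB1, a receptor of ephrin-B ligands known for sending retinal axons to the same side of the brain, differed by -0.54 on the log2 scale (edgeR adjusted p = 0.0110). EPHB3 differed by 0.24 (edgeR adjusted p = 0.0376), the receptor beside EPHA4 that was higher at an adjusted p under 0.05.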
